A study of Mus musculus with 6 samples.

Results

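The cells described here are the Foxa2-positive foregut endoderm of the mouse cardiogenic region at E10.5. A cell was taken as a member from its own counts of unique molecular identifiers (UMIs), each of which marks 1 captured RNA molecule. Members had at least 3 UMIs of Epcam, an adhesion molecule of epithelial cells, and at least 2 UMIs of Foxa2, a forkhead transcription factor of endoderm. They also had fewer than 2 UMIs of Nkx2-1, the regulator of thyroid and lung, fewer than 4 UMIs of Pax1 and Pax9 together, which mark pharyngeal pouches, and no UMI of Trp63, a regulator of stratified and surface epithelium. A barcode entered only with 2500 or more genes detected and with mitochondrial genes giving no more than 10% of its UMIs. By this rule 255 of 53362 barcodes were members. They made up 0.709% of the 35962 barcodes that passed the cell filter and 3.76% (95% exact binomial interval 3.32 to 4.24) of the 6784 cells with at least 3 Epcam UMIs. The other 6529 of these Epcam-positive cells served as the comparison.

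The embryos were wild-type C57BL/6 mice from timed matings between normal glycemic males and females treated before mating. In the vehicle group (3 samples) the mothers were normal glycemic. In the STZ group (3 samples) they had received streptozotocin, which destroys the insulin-producing cells, and were hyperglycemic. The labels call the tissue the cardiogenic region and state that endoderm, ectoderm and non-cardiac mesoderm were carried along, and give no number of embryos per sample.

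All cells stand in 1 matrix, and a barcode suffix from 1 to 6 separates 6 libraries that no file used here ties to a sample. Vehicle and STZ were therefore not compared, the libraries are described as they are, and every interval below covers counting error only. Libraries held 200462921 to 248426458 UMIs. Library 1 stood apart in sex-linked RNA, with 383 CPM (counts per 1000000 UMIs) of Xist against 0.0661 to 0.342 in the other libraries and 0.0908 CPM of Ddx3y against 33.8 to 38.1. Members had a median of 28764 UMIs and the other Epcam-positive cells 28575. A barcode sequence that also occurred in another library was carried by 29 members, and no such sequence was a member in more than 1 library. Without them 226 members were left, and the numbers of genes called below were 115 higher and 371 lower.

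Foregut endoderm is the epithelium of the anterior gut tube. From it come the pharyngeal pouches, thyroid, lungs, oesophagus, stomach, liver and pancreas, and it sends signals such as Sonic hedgehog to the heart-forming and gut mesoderm around it. FOXA factors bind condensed chromatin early in these tissues and are known for opening enhancers of gut and liver genes.

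The number of members differed between libraries. Libraries 1 to 6 held 28, 29, 33, 37, 89 and 39 members, or 2.62%, 2.64%, 3.53%, 3.31%, 6.54% and 3.24% of their Epcam-positive cells. The exact binomial interval of library 5, 5.28% to 7.98%, lay above those of the other libraries, the highest of which reached 4.92%. Without library 5 there were 166 members and the share was 3.06%. Other Epcam-positive cells of library 5 also stood apart in Barx1, a homeobox gene of stomach mesenchyme, at 64.7 CPM against 5.18 to 12.2 CPM elsewhere. In the same cells Foxf1, a regulator of gut mesenchyme, stood at 36.5 CPM against 5.11 to 13.0, and Osr1, a gene of posterior foregut and lateral mesoderm, at 29.0 CPM against 12.9 to 16.4. The part of these differences in the share of members was not tested.

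**Figure D1:**
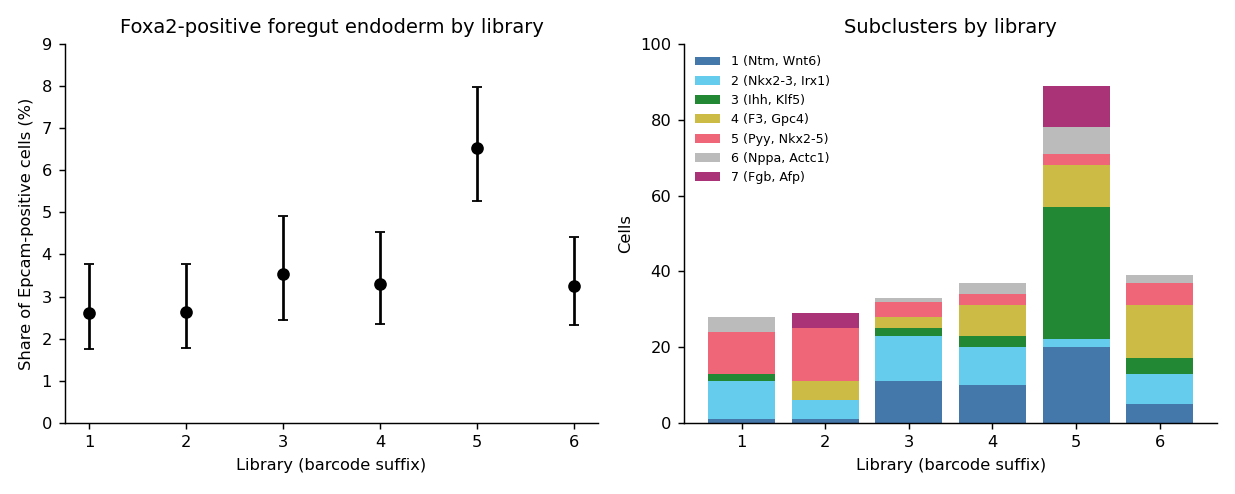
Left, the share of members among Epcam-positive cells (%) in each of 6 libraries, with 95% exact binomial intervals; library 5 stands at 6.54% and the other libraries between 2.62% and 3.53%. Right, the number of members of each library in each of 7 subclusters, shown as stacked bars and named by leading genes; subclusters 3 and 7 draw 35 of 46 and 11 of 15 cells from library 5.

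The values of the rule's genes in members were limited by construction. Members held 3 to 93 Epcam UMIs (median 23) and 2 to 22 Foxa2 UMIs (median 3). Foxa2 stood at 121 CPM in members against 17.7 CPM in the other Epcam-positive cells, while Epcam stood at 761 and 697 CPM. Of 1018 Epcam-positive cells with at least 2 Foxa2 UMIs, 266 were set aside by Nkx2-1, 134 by Pax1 and Pax9 and 532 by Trp63, and 169 of these fell under more than 1 limit. Near the thresholds, 82 members had exactly 2 Foxa2 UMIs and 141 cells that met every other limit had 1. With 3 UMIs of Pax1 and Pax9 there were 15 members and with 4 UMIs 11 cells just outside. At 1 Nkx2-1 UMI there were 11 members and at 2 UMIs 10 cells outside. A single Trp63 UMI kept 115 cells out. The share of members was 3.83% (exact binomial interval 3.21 to 4.53) at or above the median depth of Epcam-positive cells and 3.69% (3.08 to 4.38) below it.

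Genes were compared between members and the other Epcam-positive cells where either side reached 10 CPM, which left 9348 genes. A gene was called higher or lower when the ratio of summed levels was at least 2-fold and all 6 libraries had the same direction. By this rule 121 genes (1.29%) were called higher and 315 (3.37%) lower. The median difference over all compared genes was -0.02 on the log2 scale. As the members were chosen by their own RNA, these calls describe them and carry no test. Without library 1 the numbers were 150 higher and 347 lower.

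Several endoderm regulators were higher in members together with Foxa2. Of 20 compared genes of a list of endoderm regulators, 5 were called higher and 2 lower, with a median log2 difference of -0.08. Foxa1, the closest relative of Foxa2 in this tissue, had 49.1, 93.2 and 99.2 CPM as its lowest, median and highest library value in members, against 16.3, 21.2 and 26.2 CPM in the other cells. The libraries did not overlap, and the summed levels were 88.2 and 21.9 CPM, a ratio of 4.04 (95% interval 3.73 to 4.36). Klf5, a zinc finger factor of gut epithelium, was 4.31-fold higher (3.93 to 4.73) with 14.8 to 89.4 CPM over libraries against 9.33 to 18.3 CPM, so that its lowest library overlapped the other cells. Gata6, a zinc finger factor of endoderm and heart, was 2.08-fold higher (1.87 to 2.32), also with a slight overlap. Without library 5 the ratio was 1.86 and without the 15 hepatoblast-like members (subcluster 7) it was 1.91, and Gata6 was then not called. Shh, the hedgehog ligand of gut epithelium, had 71.9, 96.6 and 112 CPM against 30.4, 43.4 and 52.8 CPM and a ratio of 2.20 (2.05 to 2.37).

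The 2 regulators called lower were Nkx2-3 and Nkx2-6, homeobox genes of pharyngeal endoderm, each 12.1- to 12.2-fold lower. Nkx2-3 had a median of 1.29 CPM over libraries in members and 52.8 CPM in other cells. Library 1 was highest, at 22.2 CPM, and without it the ratio of members to other cells moved from 0.0819 to 0.0462.

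Other endoderm regulators missed the calls. Sox2, which marks the dorsal foregut, was detected in 91.0% of members and 52.8% of other Epcam-positive cells, against 0.866% of cardiomyocytes taken as a measure of free RNA (3233 cells without Epcam and with at least 20 Tnnt2 UMIs, median depth 42794 UMIs). Its level was 166 to 228 CPM in members and 93.8 to 121 CPM in other cells, without overlap, a ratio of 1.78 (1.69 to 1.87). Isl1, a LIM homeobox gene of pharyngeal endoderm and heart progenitors, stood at 72.1 against 139 CPM and was below the other cells in 6 of 6 libraries. Sox9 stood at 21.4 and 31.6 CPM, Tbx1 at 27.2 and 41.1 CPM, Nkx2-5 at 15.9 and 16.0 CPM and Grhl2, a regulator of epithelial junctions, at 58.7 and 65.4 CPM. Irx1, Irx2, Irx3 and Irx5, Iroquois homeobox genes, stood at 23.4, 31.3, 27.7 and 18.0 CPM in members and at 46.5, 46.0, 43.1 and 25.1 CPM in other cells. Ovol2 stood at 13.5 and 8.10 CPM. Gata4 had 29.7 CPM against 10.1 CPM and Prox1 22.6 against 8.61 CPM, but each was above the other cells in only 4 and 3 of 6 libraries. Subcluster 7 held 135 of the 191 Prox1 UMIs in members, and without it Prox1 stood at 7.30 CPM, under the level of other cells. Foxa3, Sox17, Hnf4a, Hhex, Elf3 and Ehf stayed under 10 CPM on both sides. Their levels in members were 8.05, 4.50, 2.61, 9.71, 9.0 and 0.237 CPM. Most UMIs of Foxa3, Hnf4a and Hhex lay in subcluster 7, and without it these genes stood at 2.61, 0.391 and 1.43 CPM.

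**Figure D2:**
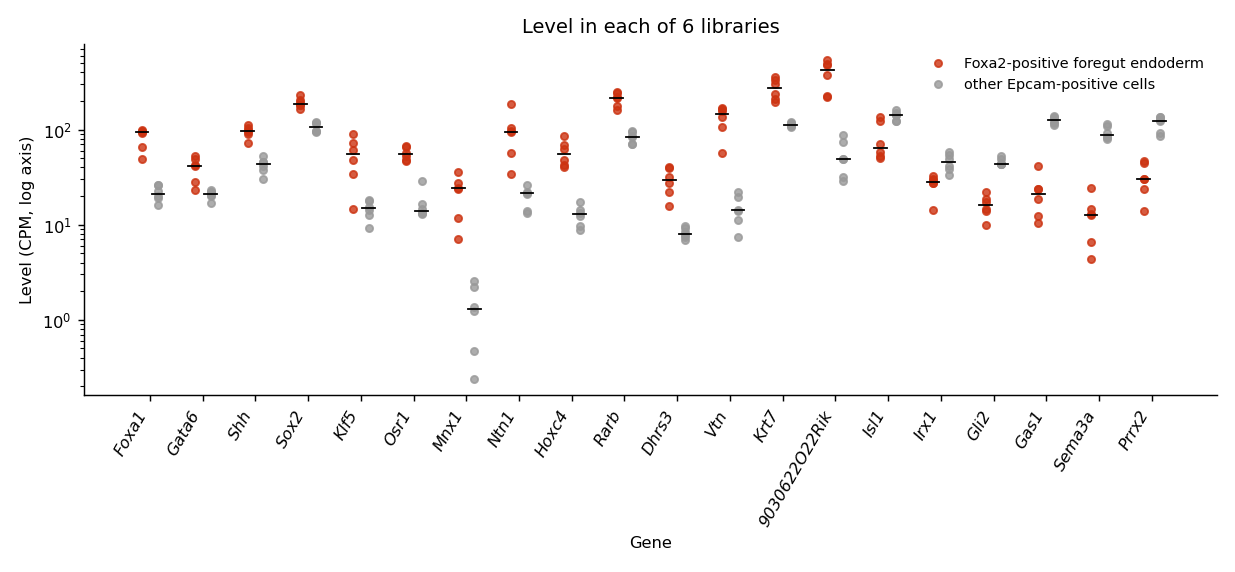
Levels (CPM, log axis) of 20 genes in each of 6 libraries, in members (red) and in other Epcam-positive cells (grey), with a bar at the median library. Foxa1, Shh, Mnx1 and 9030622O22Rik do not overlap between the groups, Gata6 and Klf5 overlap in their lowest library, and Gli2, Gas1, Sema3a and Prrx2 lie lower in members in all libraries.

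9030622O22Rik, a long non-coding RNA, is annotated next to Foxa2. It lies at chr2:147944740-148040203 on the minus strand (mm10, GENCODE M21), and its start is 2674 bases beyond the end of Foxa2 on the same strand. It was detected in 90.2% of members, in 18.6% of other Epcam-positive cells and in 0.309% of the cardiomyocytes. Its lowest, median and highest library values were 222, 427 and 539 CPM in members and 28.7, 49.3 and 88.7 CPM in other cells, which do not overlap, and the ratio was 7.80 (7.50 to 8.10). Over all Epcam-positive cells, members included, its level rose with the Foxa2 count, by which the members were chosen. In Epcam-positive cells with 0, 1, 2, 3 to 4 and 5 or more Foxa2 UMIs it was 9.35, 142, 215, 259 and 376 CPM. Members with 2, 3 to 4 and 5 or more Foxa2 UMIs had 377, 385 and 494 CPM, above all Epcam-positive cells with the same Foxa2 count. In members the intervals at 2 UMIs (353 to 403) and at 3 to 4 UMIs (365 to 407) overlapped. Subclusters 1 and 5 of the members, described below, had 130 and 125 CPM of Foxa2, but 873 and 146 CPM of 9030622O22Rik. Whether some UMIs of 9030622O22Rik come from Foxa2 transcripts that run past the annotated end was not tested.

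**Figure D3:**
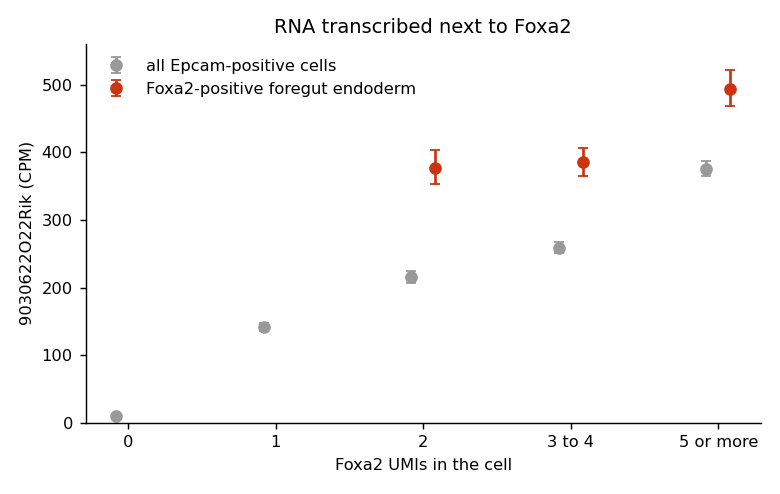
Level of 9030622O22Rik (CPM, with 95% exact Poisson intervals) in cells grouped by their Foxa2 UMIs. All Epcam-positive cells, members included, are grey and members alone are red. The level is 9.35 CPM without Foxa2 and 376 CPM at 5 or more UMIs, and members reach 494 CPM.

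The sequences before the starts of these genes are shown because FOXA factors are known to bind TGTTTAC and TGTTTGC. Both motifs were searched on both strands of the RefSeq windows from 250 bases before to 50 after each gene's start (GRCm38.p6). At least 1 of them occurred in 8.48% of 32851 windows and in at least 1 window of 9.47% of genes. Of the compared genes with a window 551 of 7460 (7.39%) held one, and of those called higher 14 of 94 (14.9%). A match is a description of letters and not a site of binding. The Foxa1 sequence is the 250 bases before the RefSeq start, chr12:57546112-57546361, minus strand. GENCODE M21 places the start of Foxa1 further upstream (chr12:57540628-57546916), so this stretch lies inside the gene as annotated there. The 9030622O22Rik sequence is the whole window at chr2:148040437-148040736, minus strand, 1 of 26 windows listed for this gene. Capitals mark the motif, which reads GTAAACA on the printed strand. 
Foxa1: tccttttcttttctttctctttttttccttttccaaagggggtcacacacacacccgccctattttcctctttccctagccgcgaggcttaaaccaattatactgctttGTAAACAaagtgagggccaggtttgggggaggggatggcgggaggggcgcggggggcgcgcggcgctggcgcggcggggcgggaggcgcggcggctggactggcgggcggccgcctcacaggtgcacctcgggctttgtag
9030622O22Rik: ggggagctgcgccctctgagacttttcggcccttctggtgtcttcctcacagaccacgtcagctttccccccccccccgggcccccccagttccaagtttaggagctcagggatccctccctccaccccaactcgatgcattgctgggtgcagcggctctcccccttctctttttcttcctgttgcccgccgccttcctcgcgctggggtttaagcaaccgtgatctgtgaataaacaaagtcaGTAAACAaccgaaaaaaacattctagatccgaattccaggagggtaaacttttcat

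Mnx1, a homeobox gene known from notochord, motor neurons and the dorsal pancreatic bud, had 7.01, 24.3 and 36.0 CPM over libraries in members and 0.237, 1.30 and 2.53 CPM in other cells, a ratio of 16.9 (14.0 to 20.4) with no overlap. Onecut1, a regulator of liver, pancreas and biliary genes, was 18.3-fold higher (16.3 to 20.6), but its libraries spread from 2.34 to 94.0 CPM, with library 1 lowest and library 5 highest. Osr1 was even over libraries, 46.7 to 67.8 CPM against 12.9 to 29.0 CPM, a ratio of 3.25 (2.94 to 3.58). Pitx1, a homeobox gene of oral ectoderm and hindlimb, was 5.32-fold higher (4.66 to 6.05) and Spp1, which encodes osteopontin, 3.83-fold. Ntn1, which encodes the guidance cue netrin, had 34.5 to 183 CPM against 13.2 to 25.8 CPM and a ratio of 4.75 (4.4 to 5.13).

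Of the gene lists, 2 of 11 compared genes of oesophagus and dorsal foregut were called higher (Klf5 and Mnx1) and 1 lower (Has2, a hyaluronan synthase, 2.04-fold). The call of Has2 was lost without library 4, 5 or 6, without cells of high doublet scores and without subcluster 7, at ratios of 0.501 to 0.574 against 0.490. Of the pancreas and biliary list 3 of 7 were higher (Onecut1, Mnx1 and Spp1) and none lower. Of the stomach and intestine list 1 of 4 was higher, Osr1. The median log2 differences of these lists were 0.70, 1.94 and 1.22. Genes that define committed pancreas and intestine were at or near 0: Pdx1 had 2 UMIs in all members, Cdx2 had 1, and Ptf1a and Neurog3 had 0. Of the notochord markers, T had 2 UMIs and Noto 0, and of 6 compared genes of that list 1 was higher (Shh) and 1 lower (Bmp7).

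Retinoic acid, made by the mesoderm beside the foregut, sets anterior-posterior position in endoderm and acts on Hox genes and on Rarb. Of 12 compared genes of the pathway 2 were higher and 3 lower. Rarb, which encodes a retinoic acid receptor, had 159 to 250 CPM against 70.6 to 96.2 CPM and a ratio of 2.54 (2.42 to 2.67). Dhrs3, which encodes an enzyme that turns retinaldehyde back to retinol, had 15.8 to 40.7 CPM against 6.95 to 9.64 CPM and a ratio of 3.54 (3.09 to 4.05). Neither gene overlapped between the groups. Crabp1, which encodes a carrier of retinoic acid, was 2.79-fold lower, Cyp26b1, which encodes a degrading enzyme, 2.62-fold lower, and Aldh1a1, which encodes a retinaldehyde dehydrogenase, 2.48-fold lower. Without subcluster 6 (17 members), which as a set carried heart and mesenchyme RNA, the ratio of Crabp1 moved from 0.358 to 0.221. Aldh1a2, the main synthesis gene in mesoderm, had 4.50 CPM in members and 1.77 CPM without subcluster 6, which held 25 of its 38 UMIs.

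Of 9 compared Hox genes 2 were higher. Of these Hoxc4 had 40.9, 55.7 and 85.5 CPM over libraries against 8.90, 12.8 and 17.2 CPM, a ratio of 4.23 (3.82 to 4.67). Hoxb4, at 46.4 against 28.9 CPM, and Hoxb1, at 39.4 against 25.6 CPM, were above the other cells in 5 of 6 libraries. Without library 5, 5 of 10 compared Hox genes were called higher.

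Of 14 compared genes of the hedgehog pathway 1 was higher, Shh itself, and 5 were lower, with a median log2 difference of -0.46. Gas1, which encodes a co-receptor for SHH, had 10.4, 21.2 and 40.9 CPM in members and 112, 126 and 140 CPM in other cells, a 6.12-fold lower level (5.27 to 7.15). Boc, another co-receptor, was 3.46-fold lower (2.37 to 5.27). Subcluster 6 held 17 of its 27 UMIs in members, and without these cells Boc stood at 1.36 CPM in place of 3.20 CPM. Its call was lost without cells of high doublet scores. Cdon, the third, stood at 21.1 and 33.3 CPM and was below the other cells in 6 of 6 libraries without reaching 2-fold. Gli2, the main activator among the GLI factors, had 9.85 to 22.2 CPM against 43.3 to 52.5 CPM and was 2.81-fold lower (2.38 to 3.35). Hhip, which encodes a decoy receptor, was 3.46-fold lower and Scube1, whose family helps to release the ligand, 2.91-fold lower. Without library 5 the ratio of Scube1 moved from 0.343 to 0.197, and without subcluster 6 to 0.228.

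Other genes of the pathway were not called. Ptch1, the receptor and itself a target, stood at 148 CPM in members and 130 CPM in other cells (ratio 1.14, interval 1.08 to 1.21), and Smo, the signal transducer, at 78.0 and 77.8 CPM. Gli3, mainly a repressor, stood at 99.0 and 149 CPM. Sufu (27.0 and 25.4 CPM), Disp1 (15.2 and 19.2 CPM), Hhat (11.1 and 9.93 CPM), Scube3 (18.8 and 21.8 CPM) and Foxf1 (10.4 and 14.5 CPM) missed the calls. Subcluster 6 held 57 of the 88 Foxf1 UMIs in members, and without it Foxf1 stood at 4.23 CPM. Ihh, Dhh, Gli1, Kif7 and Scube2 stayed under 10 CPM on both sides, with 6.16, 0.355, 5.33, 6.04 and 0.474 CPM in members.

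Of the pharyngeal pouch list 6 of 12 compared genes were lower and none higher, with a median log2 difference of -1.06. Fgf8, a growth factor of pharyngeal endoderm and ectoderm, stood at 5.33 against 95.5 CPM, 17.9-fold lower (13.4 to 24.6). It was at 0 in 4 libraries, and library 2 held nearly all of it at 41.4 CPM. Without library 2 its ratio of members to other cells was 0.00442 in place of 0.0558. Eya1, a transcriptional cofactor of pouches and placodes, was 4.65-fold lower with 21.5 to 45.3 CPM in members against 129 to 152 CPM. Six4, Fgf3 and Nkx2-6 were also lower.

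Of the thyroid list 1 of 4 was lower: Pax8, a thyroid regulator, had 0 UMIs in members, and with 3 counts taken as the limit its level was at least 52.3-fold lower than the 18.6 CPM of other cells. Of the lung list 3 of 11 were lower, the ETS factors Etv4 and Etv5 and the ligand Wnt7b, whose call was lost without library 3 or 4. Of the surface ectoderm list 6 of 11 were lower and 1, Pitx1, higher, with a median of -1.54. Tfap2a, a regulator of ectoderm and neural crest, was 17.1-fold lower (10.8 to 28.9), and Foxi2, a forkhead gene of cranial ectoderm, had 7 UMIs in all members against 22.7 CPM in other cells. Of the floor plate and neural list 3 of 5 were lower (Sulf1, Neurog2 and Tubb3) and Ntn1 was higher. Neurog2, a factor of sensory neuron progenitors, had 1 UMI in all members, against 24.5 CPM in other cells. Without library 5 the ratio of Tfap2a moved from 0.0584 to 0.0308 (0.0336 without subcluster 6) and that of Tubb3 from 0.114 to 0.183, and without library 2 that of Foxi2 from 0.0366 to 0.00609. The rule sets aside cells with Nkx2-1, Pax1, Pax9 or Trp63, so these low values are not independent of how the members were chosen.

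**Figure D4:**
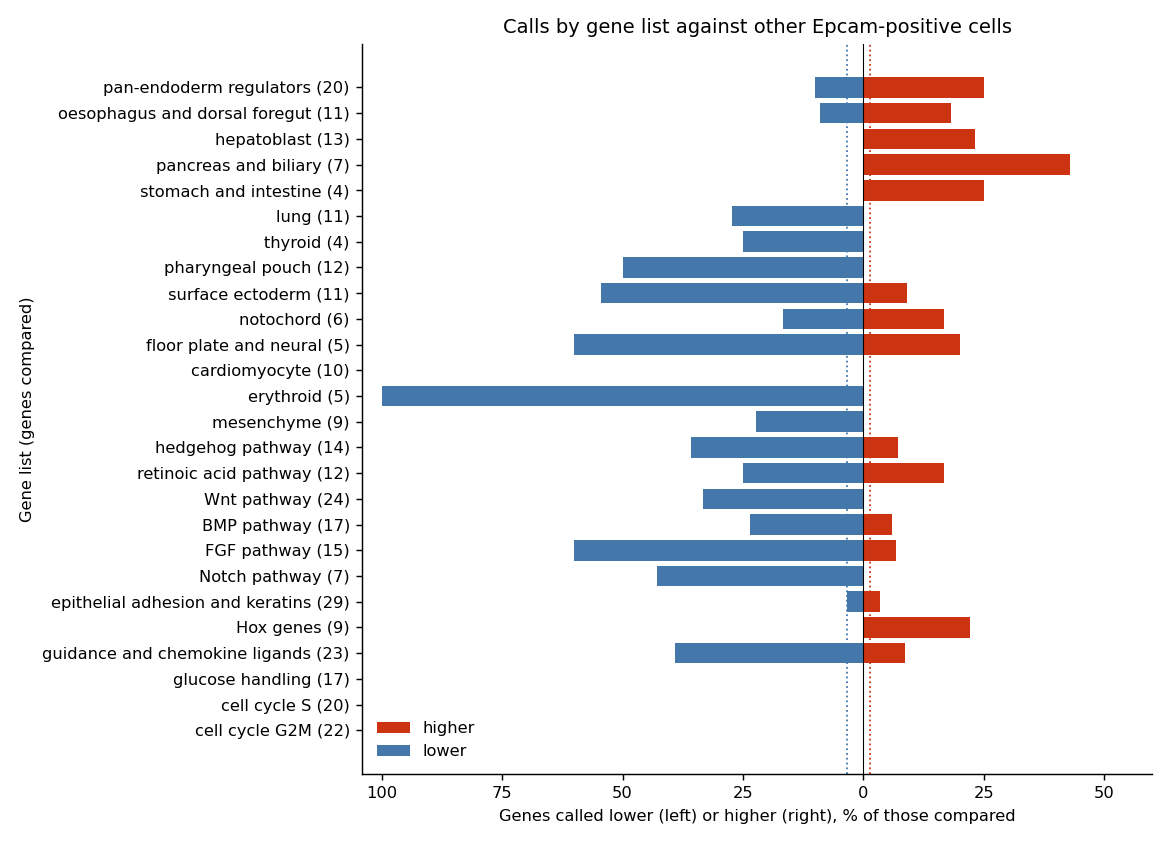
Share of the compared genes of 26 lists (%) called higher (red, to the right) or lower (blue, to the left) in members against other Epcam-positive cells, with the number of compared genes after each list's name; a list with only 1 compared gene is not drawn. Dotted lines mark the shares over all compared genes, 1.29% higher and 3.37% lower; pouch, surface ectoderm, FGF and erythroid genes lie lower, and the pancreas and biliary list has 3 of 7 genes higher.

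In the FGF, Wnt, BMP and Notch lists more genes were lower than higher. Over all compared genes 3.37% were lower and 1.29% higher. Of 15 compared FGF pathway genes 9 were lower: the ligands Fgf3, Fgf8 and Fgf9 and the response genes Spry1, Spry2, Dusp6, Etv1, Etv4 and Etv5. The median log2 difference of the list was -1.48. Etv1 had 17 of its 33 UMIs in subcluster 6, and stood at 3.91 CPM in members and 2.18 CPM without it. Etv5 had 6.14 to 9.84 CPM over libraries in members and 21.9 to 34.4 CPM in other cells, and was 3.38-fold lower (2.68 to 4.32). Fgfr4, an FGF receptor of endoderm and liver, was the gene called higher, at 11.0 against 1.90 CPM, a ratio of 5.80 (4.58 to 7.29). Without subcluster 7 its ratio was 4.95, but at 9.39 CPM it fell under the 10 CPM minimum and was not compared.

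Of 24 Wnt pathway genes 8 were lower and none higher, among them the ligands Wnt6 (14.8-fold, 11.5 to 19.3) and Wnt4 (6.51-fold, 5.12 to 8.41). Of 17 BMP pathway genes 4 were lower, including the ligand Bmp7 and the response genes Msx1 and Msx2, and 1 was higher, Smoc2, which encodes a matrix protein that modulates BMP signals. Bmp7 lost its call without library 3, at a ratio of 0.501 in place of 0.486, and the ratio of Msx1 moved from 0.311 to 0.207 without library 3 and to 0.171 without subcluster 6. Of 7 Notch pathway genes 3 were lower: the ligand Jag1, the target Hey1 (5.97-fold, 4.27 to 8.63) and the feedback gene Nrarp. Without library 5 the ratio of Nrarp moved from 0.255 to 0.168, and without library 6 that of Wnt6 from 0.0677 to 0.0426.

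Of 23 guidance and chemokine genes 9 were lower and 2 higher. Sema3a, a repellent for axons and crest cells, had 4.39 to 24.6 CPM over libraries against 79.5 to 114 CPM, and was 7.35-fold lower (6.08 to 8.99). Without subcluster 6 its ratio moved from 0.136 to 0.0813. Edn1, the endothelin ligand that patterns the pharyngeal arches, was 7.57-fold lower (5.53 to 10.7). Cxcr4, the receptor for the chemokine CXCL12, was 2.15-fold higher (1.75 to 2.62), while Cxcl12 was 4.82-fold lower. Without library 4 the ratio of Cxcr4 was 1.89 and it was not called.

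Of 29 compared adhesion and keratin genes 1 was higher and 1 lower. Over all compared genes 1.29% were higher and 3.37% lower, so these counts are not read as a result about epithelial genes. Krt7, a keratin of simple epithelia, had 196, 271 and 361 CPM over libraries in members against a median of 112 and at most 121 CPM, a ratio of 2.37 (2.27 to 2.47) without overlap. Cdh1, the epithelial cadherin, stood at 50.9 and 51.3 CPM.

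No gene of glucose handling was called among 17 compared, and none among 20 of S phase and 22 of G2M phase. With 1.29% higher and 3.37% lower over all compared genes, lists of this size show little by holding no call. Slc2a1, the main embryonic glucose transporter, stood at 74.5 CPM in members and 124 CPM in other cells and was below them in 6 of 6 libraries. Hk2, a hexokinase, stood at 71.2 and 41.8 CPM and was above them in 6 of 6. Neither reached 2-fold.

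Among genes outside the lists that were called higher and had at least 100 UMIs in members, the following had the largest ratios besides 9030622O22Rik. Some uncalled genes had larger ones, such as Fgb, Serpinf2 and Apom, at 38.8, 43.6 and 65.2, which were above the other cells in 4, 2 and 2 of 6 libraries and had 99.7% to 99.8% of their UMIs in subcluster 7. Galntl6, a relative of the enzymes that start mucin-type glycosylation, had 52.2 to 378 CPM over libraries against 7.31 to 33.0 CPM, a ratio of 13.4 (12.7 to 14.2). Adcy8, an adenylyl cyclase, was 12.2-fold higher (11.4 to 13.2). Itih2, ccdc198, Rgn, Cpn1, Myo16, Tgm2, Fam183b, Car4 and Gpx2 were 5.84- to 20.7-fold higher. Car4, a carbonic anhydrase, had 64.3 to 229 CPM against 14.4 to 39.9 CPM. Gpx2, a glutathione peroxidase of gut epithelium, had 15.2 to 39.6 CPM against 1.94 to 5.04 CPM. Against the Foxa2-positive cells with Trp63 described below, Galntl6, Adcy8 and ccdc198 were called higher, at 2.36- to 3.22-fold. Itih2, Rgn and Myo16 (ratios 19.4, 3.34 and 2.49) were above those cells in 5 of 6 libraries and were not called. Cpn1 (1.79), Tgm2 (1.37), Fam183b (1.85), Car4 (1.31) and Gpx2 (1.11) did not reach 2-fold there.

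The lowest ratios outside the lists belonged to Rarres1, Phox2a, Ctxn3, Tac2, AI646519, Mybpc1, Cxcl14 and Prlr, which had 2 to 5 UMIs each in all members and 11.4 to 52.2 CPM in other cells. AI646519 overlaps Pax1, a gene of the rule, on the opposite strand, so its value is uncertain. Prlr, the prolactin receptor, stood at 110 CPM in the Nkx2-1 cells described next.

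Globin genes looked lower in members, but 33 of the other Epcam-positive cells carried most of that RNA. Of the erythroid list 5 of 5 compared genes were called lower, with Hba-x at 32.6 against 1165 CPM and Hbb-bh1 at 10.1 against 363 CPM. The 33 cells with over 1% globin UMIs held 96.8% of the globin UMIs of the other cells, and no member passed 1%. The median cell had 106 globin CPM in members and 101 in other cells. After cells with high doublet scores were left out, 0 of 5 were called, and the ratios of Hba-x and Hbb-bh1 were 0.383 and 0.405. With a Foxa2 minimum of 1 UMI in place of 2 they turned to 1.73 and 1.58.

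Members were next compared with like sets of Epcam-positive cells that the rule itself sets aside, by the same call rule. These sets have no Foxa2 minimum, so differences from them are not independent of the choice of members by Foxa2. Against 599 cells with at least 2 Nkx2-1 UMIs, 71 of 9514 compared genes (0.746%) were higher and 336 (3.53%) lower. Foxa1 (46.6 CPM) and Gata6 (63.4 CPM) of the Nkx2-1 cells were not called against members, while Shh was lower in members, at 93.6 against 198 CPM. Mnx1, Onecut1, Vtn, Ntn1, Hoxc4, Pitx1 and 9030622O22Rik were higher in members. Against 1357 cells with at least 4 UMIs of Pax1 and Pax9, fewer than 2 of Nkx2-1 and none of Trp63, 226 of 9236 genes (2.45%) were higher and 296 (3.2%) lower. Foxa1, Gata6, Shh and Klf5 were all higher in members, against 14.2, 11.3, 9.54 and 5.66 CPM in the Pax cells. Only 134 Epcam-positive cells had 4 or more UMIs of Pax1 and Pax9 together with at least 2 of Foxa2. The comparison therefore does not show how members differ from Foxa2-positive pouch cells. Sox2, at 189 and 167 CPM, was not called. Against 2976 cells with Trp63, of which 115 also counted among the Nkx2-1 cells, 115 of 9352 genes (1.23%) were higher and 323 (3.45%) lower. Of the FGF pathway list 1 of 10 compared genes (Etv5) was lower against the Nkx2-1 cells, 12 of 18 against the Pax cells and 7 of 13 against the Trp63 cells.

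The nearest set was 363 cells that met every limit but carried Trp63, a comparison chosen after the other values were seen. Against them 27 of 9204 genes (0.293%) were higher and 84 (0.913%) lower. Foxa2 stood at 121 CPM in members and 118 CPM in these cells, Foxa1 at 88.2 and 68.4 CPM, and Sox2 at 189 and 218 CPM. Shh stood at 93.6 against 156 CPM, below these cells in 6 of 6 libraries without reaching 2-fold. 9030622O22Rik stood at 418 and 327 CPM, a ratio of 1.28 (1.22 to 1.34), and was above these cells in 4 of 6 libraries. It was not called, and neither were Osr1 (ratio 0.803), Smoc2 (0.81), Rarb (0.921), Krt7 (1.09) and Ntn1 (1.18). Spp1 (0.708), Dhrs3 (1.25), Klf5 (1.30), Pitx1 (1.31), Gata6 (1.37), Hoxc4 (1.37) and Vtn (1.57) were not called either. Onecut1 (5.04) was above these cells in 5 of 6 libraries and missed the call. Of 9 compared FGF pathway genes 1 was higher (Fgfr4, 2.75-fold) and none lower, and Etv5, under 10 CPM on both sides, stood at 8.65 and 2.99 CPM and was above these cells in 6 of 6 libraries. Of 12 compared hedgehog pathway genes 1 was lower (Hhip, ratio 0.371) and none higher. Gas1, at 20.5 and 25.6 CPM, and Gli2 (ratio 0.793) were not called. Scube1 (0.739) and Boc (0.594) were under 10 CPM on both sides. Mnx1 (2.17-fold), Galntl6 (2.81-fold) and Ccnd1, the cyclin D1 gene (2.13-fold), were higher in members. Isl1 (165 CPM), Nkx2-3 (29.1 CPM), Foxe1, a forkhead gene of thyroid and pharynx (195 against 57.3 CPM), Gata3 (52.3 CPM), Perp (61.1 CPM) and Sfn (47.3 CPM) of the Trp63 cells were lower in members.

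Clustering split the members into 7 subclusters of 15 to 48 cells. The genes that separate them are described and not tested, since the same genes made the clusters. Subcluster 1 (48 cells) was led by Ntm, 2410017I17Rik, Wnt6, Fam43b and Adamts17. Ntm, a neural adhesion molecule of the immunoglobulin family, stood at 114 CPM there and 17.3 CPM in the other members. These cells had the highest Mnx1 (53.4 CPM), Ntn1 (221 CPM), Pitx1 (83.8 CPM) and 9030622O22Rik (873 CPM) of the subclusters.

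Subcluster 2 (47 cells) had Nkx2-3, Rab26os and Irx1 among its leading genes, at ratios of 2.23 to 9.75, and had the lowest depth, a median of 20895 UMIs. Nkx2-3 came from 12.8% of its cells.

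Subcluster 3 (46 cells) was led by Ihh, Shisa6, Klf5, Calcrl and Car2. Ihh, the hedgehog ligand of stomach and intestine, stood at 26.8 CPM against 2.12 CPM and was detected in 45.7% of these cells. Klf5 stood at 206 CPM, Galntl6 at 736 CPM, Gata4 at 84.9 CPM, Osr1 at 113 CPM and Hnf4g, a nuclear receptor of gut and liver, at 18.1 CPM. Shh (166 CPM) and Sox2 (292 CPM) were at their highest here. Library 5 gave 35 of the 46 cells.

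Subcluster 4 (41 cells) had F3, Gpc4, Cavin2 and Pcsk5 among its leading genes. It held Foxe1 at 138 CPM and Sulf1, an enzyme that trims heparan sulphate, at 242 CPM, but only 31.7% and 46.3% of its cells had a UMI of these genes. Perp, a desmosome-associated gene of stratified epithelium, stood at 57.7 CPM in subcluster 4. In subcluster 5 Foxe1 stood at 165 CPM and was found in 61.0% of cells.

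Subcluster 5 (41 cells) was led by Pyy, Prkcb, Nrxn3, Flrt1 and Dok5, and 7 of the 20 pharyngeal pouch markers were enriched in it. Isl1 stood at 173 CPM, Tbx1 at 79.9 CPM, Eya1 at 91.3 CPM, Ripply3 at 170 CPM and Nkx2-5 at 65.1 CPM. Bmp4 stood at 135 CPM and Hoxb1 at 135 CPM, and Pax9, limited by the rule, at 38.2 CPM. Galntl6 (31.1 CPM), Onecut1 (0.707 CPM) and Mnx1 (5.66 CPM) were low. Libraries 1 and 2 gave 25 of the 41 cells.

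Subclusters 1 to 5 all held Foxa2 (125 to 146 CPM), Sox2 (188 to 292 CPM) and Shh (82.3 to 166 CPM). Subcluster 6 also held Sox2 (99.0 CPM, in 94.1% of its cells) and Shh (44.1 CPM, in 82.35%). Foxa2 was chosen on by its UMI count, so a given count is a lower CPM in a deeper cell, and it is not compared with that of subclusters 6 and 7, which were the deepest.

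**Figure D5:**
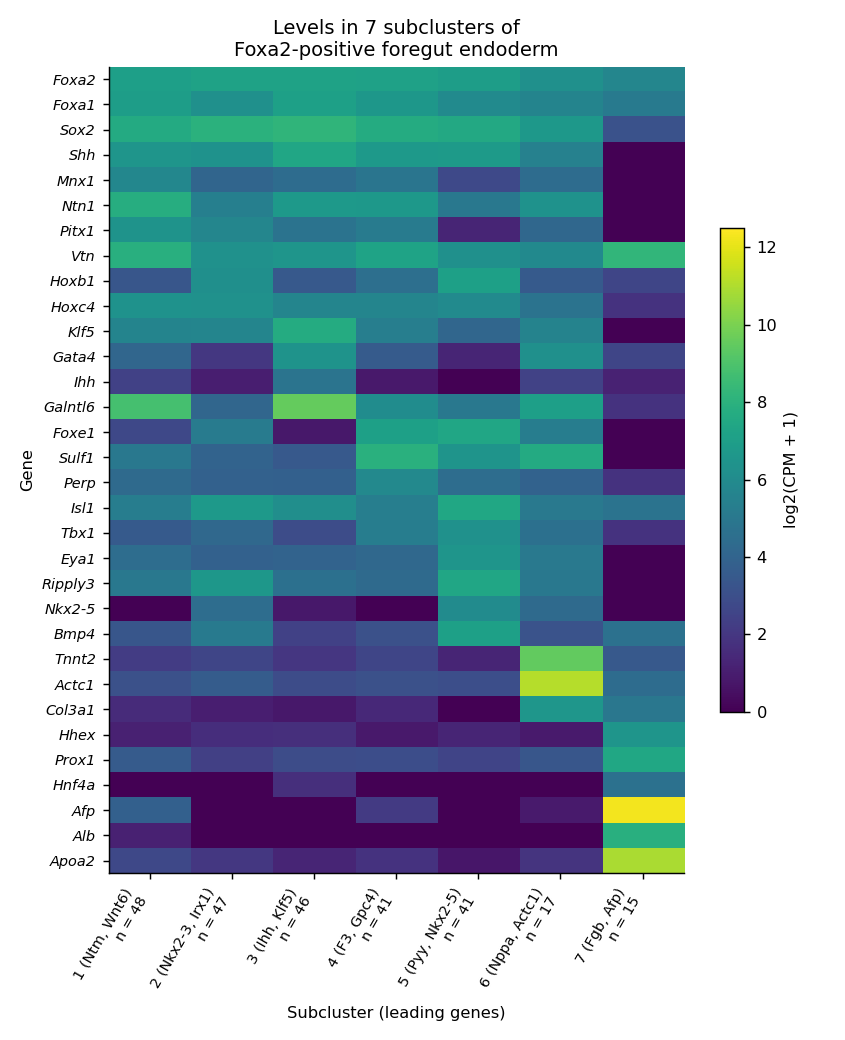
Levels of 32 genes, as log2(CPM + 1) by colour, in the 7 subclusters of members with their cell numbers. Foxa2, Foxa1, Sox2 and Shh run through subclusters 1 to 6. Galntl6 is highest in 1 and 3, Isl1, Tbx1 and Bmp4 in 5, Tnnt2 and Actc1 in 6, and Hhex, Afp, Alb and Apoa2 in 7.

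Subcluster 6 (17 cells) carried RNA of heart and mesenchyme. It was led by Nppa, Smpx, Cxcl13, C130080G10Rik and Lmod3, with all 10 cardiomyocyte markers and 12 of 15 mesenchyme markers enriched. Tnnt2, cardiac troponin T, stood at 726 CPM with 96.3% of all Tnnt2 UMIs of members, and Actc1, cardiac actin, at 2238 CPM. Nppa, Tnnt2 and Actc1 were detected in only 17.65%, 35.3% and 47.1% of these cells. Myl7, another heart gene, was detected in 76.5%, and in 58.5% to 70.8% of cells of subclusters 1 to 5. The mesenchyme genes Twist1 and Col3a1 were detected in 76.5% and 70.6% of subcluster 6. The median depth of subcluster 6 was 65027 UMIs. High doublet scores were found in 11 of its 17 cells, against 0 or 1 in each of subclusters 1 to 5. The summed level of the cardiomyocyte list ran from 60.5 to 3643 CPM over libraries in members, against 858 CPM in all other Epcam-positive cells. With these 17 cells, 0 of 10 compared cardiomyocyte genes and 2 of 9 mesenchyme genes (Prrx2 and Col1a2) were called lower in members. Without them 9 of 9 and 9 of 9 were lower. These counts follow from leaving out the members richest in this RNA while no such cells left the comparison side, so nothing is concluded from them. With cells of high doublet scores left out on both sides, 0 of 9 cardiomyocyte genes and 3 of 8 mesenchyme genes were lower. The part of doublets in this subcluster was not tested further.

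Subcluster 7 (15 cells) was hepatoblast-like, with 17 of 18 hepatoblast markers enriched. It was led by Fgb, Serpinf2, Apom, Serpina6 and Afp, genes of plasma proteins made by liver. Afp, alpha-fetoprotein, stood at 5000 CPM against 3.39 CPM in the other members, Apoa2 at 1906 CPM and Alb, serum albumin, at 232 CPM. The liver regulators Hhex (91.6 CPM), Prox1 (174 CPM) and Hnf4a (24.5 CPM) were detected in 100%, 100% and 73.3% of these cells. Sox2 stood at 7.74 CPM and no UMI of Shh, Klf5, Mnx1 or Ntn1 was found. Library 5 gave 11 of the cells and library 2 the other 4, and 6 of the 15 had high doublet scores.

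These 15 cells carried the hepatic signal of the whole set. By fold alone, 13 of 13 compared hepatoblast genes were at least 2-fold higher in members than in other Epcam-positive cells, where 2.06% of all compared genes were (and 3.64% at least 2-fold lower). The median log2 difference of the list was 4.89. With direction in every library also asked for, 3 were called: Ttr, Apoa2 and Vtn. Subcluster 7 held 98.6% of the Apoa2 UMIs and 86.3% of the Ttr UMIs of members. Without it Ttr, the thyroxine carrier transthyretin, moved from 25.1-fold to 3.79-fold higher, Itih2 from 20.7-fold to 3.69-fold, and the ratio of Apoa2 from 32.3 to 0.498. Without library 5 the ratios were 14.2 for Ttr, 11.7 for Itih2 and 11.8 for Apoa2, and for all 3 genes the libraries of members overlapped those of other cells. Vtn, which encodes vitronectin, differed from the others: only 20.1% of its UMIs came from subcluster 7, it stood at 77.1 to 238 CPM in subclusters 1 to 5, and its libraries (56.1 to 167 CPM) did not overlap those of other cells (7.41 to 22 CPM). Its ratio was 9.26 (8.66 to 9.91).

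The sequences before Alb and Afp are shown because FOXA factors are known regulators of both genes. Of the 16 hepatoblast-list genes with a window, 10 held a FOXA motif (62.5%), against 7.39% of compared genes and 9.47% of all genes. The list was picked as known liver genes, a match is not a site of binding, and FOXA control was not tested. The 250 bases before each start are printed, from chr5:90460620-90460869 for Alb and chr5:90490464-90490713 for Afp, both on the plus strand of GRCm38.p6. Capitals mark a FOXA motif (GCAAACA in Alb, TGTTTGC in Afp).
Alb: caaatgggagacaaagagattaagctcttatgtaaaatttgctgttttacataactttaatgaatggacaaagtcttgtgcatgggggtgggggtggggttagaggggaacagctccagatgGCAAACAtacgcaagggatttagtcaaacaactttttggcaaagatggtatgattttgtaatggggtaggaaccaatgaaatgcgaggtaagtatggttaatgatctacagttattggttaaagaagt
Afp: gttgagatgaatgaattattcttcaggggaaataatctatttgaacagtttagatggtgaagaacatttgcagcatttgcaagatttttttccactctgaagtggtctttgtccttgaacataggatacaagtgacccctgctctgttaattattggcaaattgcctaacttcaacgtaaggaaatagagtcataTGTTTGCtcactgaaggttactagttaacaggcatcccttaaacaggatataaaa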

How the data were processed

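Per the labels' protocols, the Chromium 3′ kit of 10x Genomics (v3) was used for droplet libraries of single cells. The labels' descriptions name a chromatin assay, while titles, kit and library source name RNA, and the values were used as RNA. The authors deposited 1 matrix of whole-number UMI counts (32285 genes, 53362 barcodes), which per the file headers came from Cell Ranger 5.0.0. The submitters' processing notes name CASAVA 1.8, Cell Ranger 5.0.0, Seurat 4 and mm10. How barcodes were called as cells is not given in the sources used here.

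From the deposited counts, UMIs were summed over cells per set and library and scaled to CPM (Python 3.11.15, numpy 2.4.6, scipy 1.17.1). Calls needed a 2-fold ratio, 10 CPM on the higher side and the same direction in every library with at least 20 cells on both sides, which all 6 had. With 1 pooled matrix no test was run. Intervals are 95% exact Poisson (levels), exact binomial by the Clopper-Pearson method (shares) and its transform (ratios). They cover counting error only. The call rule was run on simulated counts with known changes. These had no variation between cells or libraries beyond counting, so they do not show how the rule performs on real cells. The vehicle and STZ comparison set out for summed counts was not run, because no file used here pairs suffixes with samples.

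Members were clustered by the Leiden method (leidenalg 0.10.2) on 2000 variable genes, 20 principal components and 15 neighbours at resolution 0.5. A subcluster's leading genes had at least 20 CPM and a UMI in at least 10% of its cells. A marker was enriched at 2-fold over the other members, with at least 10 CPM and a UMI in at least 10% of the cells. Doublets were scored but kept, except in the alternative that leaves out 1746 of 35962 cells, 18 of them members.

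The members and the 27 gene lists were chosen with earlier results of these data known. Named genes are those of the rule, all genes of the endoderm regulator and hedgehog lists, up to 4 higher and 2 lower genes per other list, the 12 largest and 8 smallest ratios outside the lists with at least 100 UMIs on the higher side, and 5 leading genes per subcluster. Other genes named beside them were chosen after their values were seen. Of 32285 gene identifiers 32158 were in GENCODE M21, which gave coordinates. Promoter sequences are RefSeq's. Some genes that the rule names are not reported here. Alternatives covered the cell filter, the thresholds, depth, doublets, shared barcodes, weighting, the comparison cells, subclustering and each library left out.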

Additional observations from a re-analysis of the deposited data

How the results depend on the processing

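No comparison of vehicle with STZ was possible because no library could be tied to a sample. Members and other cells were compared within each of the 6 libraries by direction alone. The number of members was 396 with a Foxa2 minimum of 1 UMI, and their share of Epcam-positive cells was then 5.84%; with a minimum of 3 UMIs the share was 2.55%. With no level minimum, 203 genes were called higher and 2217 lower, as genes with few UMIs then enter. Leaving out each library in turn gave 166 to 227 members, shares of 3.06% to 3.98%, 125 to 150 genes higher, 313 to 347 lower and 4 to 6 subclusters; the lowest numbers of members and subclusters were those without library 5. With a Foxa2 minimum of 1 UMI the ratios of Hbb-bh1 and Hba-x turned to 1.58 and 1.73, and the cause was not tested. The ratio of Apoa2 was 0.498 without subcluster 7 and 0.499 without subclusters 6 and 7, 2 alternatives chosen after seeing the data. Of 82 named genes called, 65 kept their call with cells thinned to 5000 UMIs, which shared 71 of the 121 genes called higher, and 71 to 82 kept it in the other settings in which named genes were recomputed. At resolution 0.3 there were 5 subclusters and at resolution 1 there were 8. Small sets limit precision: with 3 counts taken as the limit, a gene with no UMI in members could have up to 0.355 CPM.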

Other observations

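Some genes outside the lists, picked here after their values were seen, were also higher in members in 6 of 6 libraries. Against the Foxa2-positive cells with Trp63, only Adcy2 (2.03-fold) and Adcy8 (2.36-fold) of the genes named in this section were called. Peg3, Usp29 and Zim1, imprinted genes of 1 cluster, stood at 1148, 123 and 62.3 CPM in members against 464, 51.3 and 16.3 CPM in other Epcam-positive cells, ratios of 2.48, 2.40 and 3.83. The imprinted genes Igf2, H19, Peg10 and Cdkn1c were not called, with ratios of 0.680, 0.880, 0.744 and 1.14.

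Rfx6, a winged-helix factor of gut and pancreatic endocrine cells, was 5.06-fold higher (95% interval 4.48 to 5.70), and Gata5 was 2.74-fold higher (2.32 to 3.21). Ackr3, the scavenging receptor for CXCL12, stood at 53.1 against 14.9 CPM. Cxcr4, the other receptor of this chemokine, was called higher too, but not without library 4. Against the Foxa2-positive cells with Trp63 the ratio of Cxcr4 was 1.13, without a call. The adenylyl cyclase genes Adcy1 and Adcy2 were 3.25- and 4.04-fold higher, beside Adcy8. Raet1d and Raet1e, which encode ligands of an immune receptor, were 4.43- and 3.21-fold higher, and B2m, the light chain of MHC class I, 2.29-fold higher. Raet1d and Raet1e belong to a family of similar genes, so the division of reads between them is uncertain.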
